A study of Mus musculus with 9 samples.

Results

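Excitation-contraction coupling genes were examined as a set of 10 loci in a CUT and RUN map of MyoD1, the muscle transcription factor. The set held Cacna1s, Cacnb1, Cacng1, Stac3, Ryr1, Trdn, Casq2, Jph1, Jph2 and Atp2a1, which are 10 of the 21951 protein-coding genes in GENCODE M21. A peak was counted at a locus when it overlapped the gene body or 10 kb on either side, and 142 of the 116126 peaks in the 6 lists did so. Peaks of the 6 lists that overlapped or touched were merged, which gave 59 regions at the loci out of 58309 in all. Regions are numbered along the chromosome within each locus. The cells were C2C12, an established mouse myoblast line, derived from a knock-in clone. Both groups carried the same alleles, namely a 3xF-HaloTag on the endogenous MyoD1 and an additional dox-inducible 3xF-Halo-MyoD1 transgene, so the anti-Flag antibody bound both forms. Cultures were moved to differentiation medium for 6 h with doxycycline (+dox, n = 3) or without it (no dox, n = 3). The 3 wild-type libraries of the series were not analysed here, so no signal from untagged cells stands beside the values.

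In skeletal muscle, excitation-contraction coupling turns depolarization of the surface membrane into calcium release from the sarcoplasmic reticulum. The voltage sensor in the transverse tubule, built on the Cacna1s channel with its Cacnb1 and Cacng1 subunits and the adaptor Stac3, is held against the Ryr1 release channel by the junctophilins, and triadin and calsequestrin bind at the inner side of the release site. The pump encoded by Atp2a1 returns calcium to the reticulum, and MyoD1 is known to bind E-boxes, short sequences of the form CANNTG, at many genes of the muscle program.

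The lists of no dox replicates 1, 2 and 3 held 9389, 13877 and 13403 peaks, and those of +dox replicates 1, 2 and 3 held 12536, 13260 and 53661. Depth lay between 2868000 and 8030000 alignments per library, and the list of +dox replicate 3 came from the deepest library. The lowest total signal in a list lay between 336 and 904, with the lowest floors in both libraries numbered 3. Peak height is given as the maximum signal in CPM, the authors' scaling of coverage to library size, and as its percentile among the peaks of the same list. A library without a peak in a region has no value there, which does not show that the protein was absent. Core regions were called in at least 2 of 3 no dox libraries, and Expanded regions were called in at least 2 of 3 +dox libraries and overlapped no Core region.

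Sequence around the highest maximum is shown for 8 of the 20 consensus regions, 150 bases each on the plus strand of mm10. They are examples, and Jph1 region 4, with the largest log2 difference among loci regions called in all 6 libraries, is not among them. Capitals mark CAGCTG, the E-box that MyoD1 prefers. The set takes the highest region of the whole group (Jph2 region 9). Next is the region with the largest log2 rise in replicates 1 and 2 (Jph2 region 6). A high region without this E-box in the 300 bp around its highest maximum follows (Cacng1 region 4). Searched over its whole length plus 100 bp on either side, that region did hold CAGCTG. Then come Expanded regions near gene starts (Cacnb1 region 7, Ryr1 region 7) and a region inside an exon (Trdn region 3). The last are flanking regions called in every library (Stac3 region 6, Atp2a1 region 4).
Jph2 region 9, chr2:163386901-163387050: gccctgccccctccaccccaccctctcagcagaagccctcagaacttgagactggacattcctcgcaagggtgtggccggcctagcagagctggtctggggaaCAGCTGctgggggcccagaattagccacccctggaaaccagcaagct
Jph2 region 6, chr2:163354001-163354150: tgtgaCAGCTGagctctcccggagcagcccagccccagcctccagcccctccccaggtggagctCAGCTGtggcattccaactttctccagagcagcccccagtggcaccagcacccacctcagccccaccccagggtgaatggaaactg
Cacng1 region 4, chr11:107714501-107714650: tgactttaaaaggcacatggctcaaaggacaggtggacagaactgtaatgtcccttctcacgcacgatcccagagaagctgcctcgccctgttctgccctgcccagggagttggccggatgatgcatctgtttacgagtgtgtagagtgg
Cacnb1 region 7, chr11:98021301-98021450: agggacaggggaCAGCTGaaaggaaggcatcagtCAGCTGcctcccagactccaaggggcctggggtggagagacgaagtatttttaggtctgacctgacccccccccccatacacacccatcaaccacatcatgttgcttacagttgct
Ryr1 region 7, chr7:29123876-29124025: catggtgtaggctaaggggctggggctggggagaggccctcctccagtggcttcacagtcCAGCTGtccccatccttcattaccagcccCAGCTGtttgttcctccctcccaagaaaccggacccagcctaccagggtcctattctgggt
Trdn region 3, chr10:33195951-33196100: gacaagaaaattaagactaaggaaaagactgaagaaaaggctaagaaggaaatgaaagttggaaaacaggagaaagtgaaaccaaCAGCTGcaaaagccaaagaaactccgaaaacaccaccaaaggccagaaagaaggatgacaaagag
Stac3 region 6, chr10:127513026-127513175: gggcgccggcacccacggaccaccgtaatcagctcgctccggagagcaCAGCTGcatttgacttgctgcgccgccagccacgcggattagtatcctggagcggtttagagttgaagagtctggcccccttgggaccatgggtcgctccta
Atp2a1 region 4, chr7:126464251-126464400: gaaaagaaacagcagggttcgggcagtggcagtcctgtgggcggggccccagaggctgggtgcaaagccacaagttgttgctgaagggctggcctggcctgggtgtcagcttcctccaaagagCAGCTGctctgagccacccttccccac
These windows of 150 bases held between 0 and 2 copies of CAGCTG, while counts of copies given for single regions further on are for 300 bp around the highest maximum. The window of Cacng1 region 4 held CAGGTG among other E-boxes.

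Among the 59 regions, 14 were Core, lying at 7 loci, and 6 were Expanded, lying at 4 loci. Cacna1s, Cacng1, Trdn, Jph1 and Atp2a1 each had 2 Core regions, Jph2 had 3 and Stac3 had 1. Ryr1 had 3 Expanded regions and no Core region, while Cacnb1, Stac3 and Jph2 had 1 Expanded region each. Casq2 had neither. A Core region was present at 7 of the 10 loci, against 35.4% of protein-coding genes, and an Expanded region at 4 of the 10, against 25.7%. The loci were longer than most genes, with a median window of 80.9 kb against 37.4 kb over all protein-coding genes. Per 100 kb of window the loci held 1.27 Core and 0.546 Expanded regions, against 0.812 and 0.470 over all genes.

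**Figure D1:**
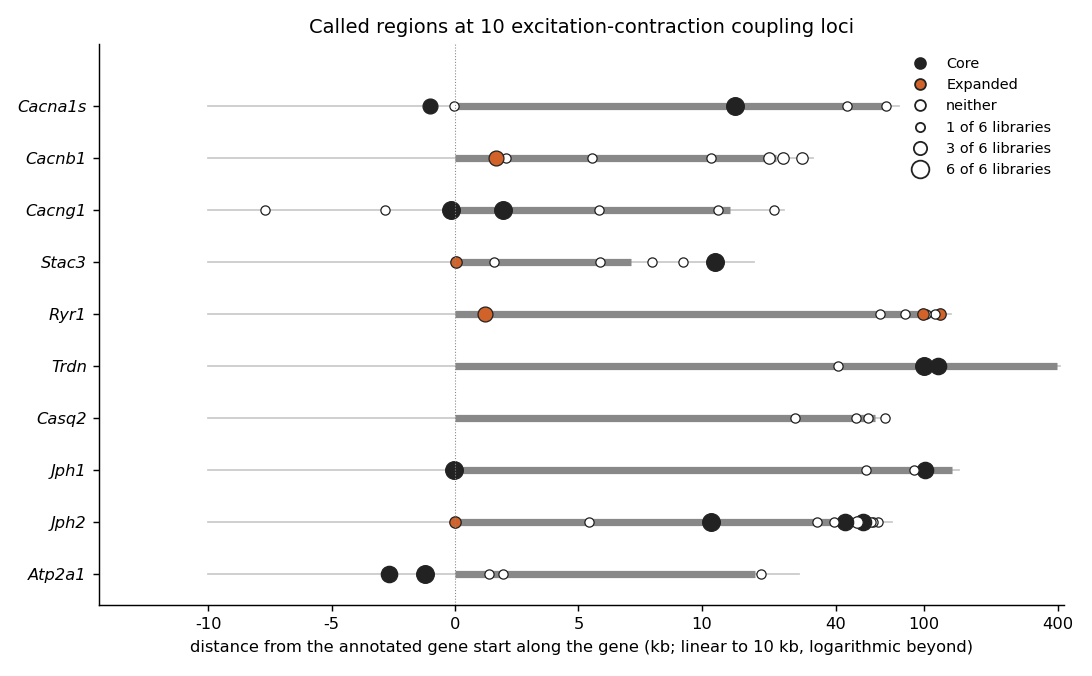
Map of the 59 called regions by distance of the highest maximum from the annotated gene start, in kb along the gene (linear to 10 kb, logarithmic beyond), with gene bodies as thick bars and the 10 kb flanks as thin lines. Fill marks Core, Expanded or neither and point size the number of libraries with a peak; Core regions sit at or near the starts of Cacna1s, Cacng1, Jph1 and Atp2a1, and Ryr1 has Expanded regions at both ends of the gene.

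No region at the loci was called in 3 of 3 libraries of one group and 0 of 3 of the other in either direction, and 1.09% of all regions had a peak in every +dox library with none in a no dox library. Peaks in all 6 libraries were found in 8 of the 59 regions (13.6%), against 8.30% of all regions. Another 28 regions (47.5%) were called in +dox replicate 3 alone, against 59.2% of all regions. Those 28 peaks reached 6 to 16 alignments at their maximum, and their percentiles ran from 4.90 to 60.2 with a median of 31.8. Split by group, 20 of the 59 regions had peaks in both groups, against 27.7% of all regions. Another 4 had peaks in no dox libraries only, against 6.95%, and 35 in +dox libraries only, against 65.3%, the last number including the 28 of +dox replicate 3.

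Summed over the loci, the no dox libraries 1 to 3 gave 16, 19 and 13 peaks and the +dox libraries 1 to 3 gave 18, 23 and 53. The no dox libraries averaged 16 ± 3 peaks and the +dox libraries 31.3 ± 18.9 (SD, n = 3 each). The groups overlapped, and the difference of 15.3 peaks fell to 4.5 without +dox replicate 3. With 1 common minimum of total signal the counts became 16, 19 and 11 against 15, 23 and 19, a difference of 3.67. As a share of each list, the loci took 0.170%, 0.137% and 0.0970% of the peaks without dox and 0.144%, 0.173% and 0.0988% with dox. The higher counts with dox went with the length of the list of +dox replicate 3, whose part in them at each locus was not tested apart from these counts.

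Stac3 was the only locus with more peaks in every +dox library than in every no dox library, with 1, 2 and 1 peaks without dox and 3, 3 and 5 with dox. Over all protein-coding genes with a peak, 4.29% showed that order. Casq2 was the only locus with peaks in +dox replicate 3 and in no other library, an order found at 17.3% of genes with a peak. With the common minimum, Stac3 had 1, 2 and 1 against 3, 3 and 2 peaks, so its groups then touched, and Casq2 had 0 in each library.

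**Figure D2:**
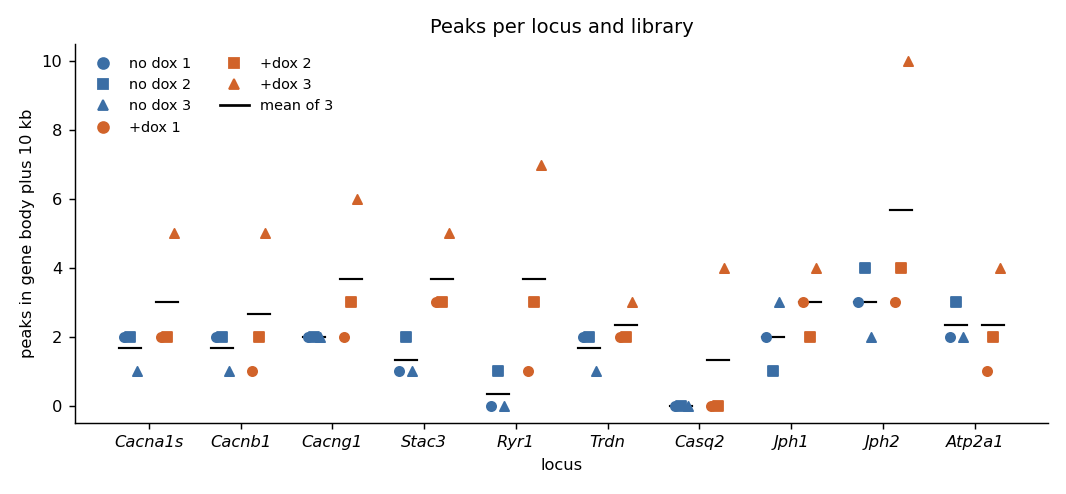
Number of peaks in the gene body plus 10 kb (vertical axis) at each locus, with no dox libraries in blue, +dox libraries in orange, a marker shape per replicate number and a line at the mean of 3. The triangle of +dox replicate 3 stands highest or level with the highest at all 10 loci, at 53 peaks in sum against 18 and 23 in the other +dox libraries.

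The voltage sensor pore is encoded by Cacna1s (chr1:136052750-136119822, plus strand). Its leading region, meaning the region with the highest mean percentile over 6 libraries, was region 3 (chr1:136066251-136067900), in an intron with its highest maximum 14026 bp into the gene. Percentiles were 80.0, 87.2 and 73.4 without dox and 35.5, 82.2 and 97.9 with dox. The +dox values spread far more widely than the no dox values and enclosed them. Maximum signal was 10.7, 13.1 and 5.14 CPM without dox and 6.28, 17.2 and 24.4 CPM with dox. Region 1 (chr1:136050301-136052350) was Core, lay 1024 bp before the gene start and 922 bp from a start site of Ascl5, and reached 13.6 and 10.4 on the percentile scale in no dox replicates 1 and 2, with 2.25 and 77.0 in +dox replicates 2 and 3. These were low peaks in all libraries but the last. Their maxima lay up to 1200 bp apart, so the calls merged there did not share a summit.

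Cacnb1 (chr11:98001508-98023034, minus strand) encodes the cytoplasmic beta subunit that brings the channel to the membrane. Its peaks were among the lowest of the set. The leading region, region 1 (chr11:97994451-97995550), lay in an intron of the neighboring Arl5c with a peak at percentile 2.28 from no dox replicate 1 and another, at 78.5, from +dox replicate 3. Region 7 (chr11:98021251-98023300), the Expanded region, had its highest maximum 1658 bp after the gene start. It reached percentile 10.4 in no dox replicate 2 and 0.734, 2.25 and 54.0 in the +dox libraries, at 6, 8 and 14 alignments. The 300 bp around its highest maximum, that of +dox replicate 3, held 3 copies of CAGCTG. Its call rested on peaks near the floor of 2 of the lists. The maxima of the 4 libraries lay up to 1500 bp apart, so the calls merged there did not share a summit.

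Cacng1 (chr11:107703218-107716522, minus strand), the gamma subunit of the skeletal muscle channel, had 2 regions called in all 6 libraries. Region 4 (chr11:107713951-107715200), in an intron 1946 bp after the gene start, was the leading region. Its percentiles were 85.4, 94.0 and 93.5 without dox and 91.7, 97.6 and 99.4 with dox. These groups overlapped, with the lowest +dox value below both higher no dox values. The maximum signal was 13.5, 22.1 and 12.9 CPM without dox and 39.1, 60.9 and 47.3 CPM with dox, where the groups did not overlap. All 6 libraries had their maximum at the same position. Region 5 (chr11:107716201-107717900), 154 bp before the gene start, had percentiles of 84.8, 79.1 and 84.8 without dox and 90.6, 82.2 and 97.9 with dox, and signals of 13.0, 9.03 and 7.71 CPM against 36.3, 17.2 and 24.2 CPM. Both regions were thus higher in CPM in each +dox library than in each no dox library. The median over all 4838 regions called in all 6 libraries had the same order. In log2 CPM it was 2.98, 3.25 and 2.48 without dox and 4.12, 3.91 and 3.45 with dox. The share of all regions with this order in CPM was not counted.

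Stac3 (chr10:127501686-127508823, plus strand) encodes the adaptor that joins the voltage sensor to the release channel. Region 6 (chr10:127511551-127514150) led the locus and was called in all 6 libraries. It lay beyond the end of the gene, with the nearest protein-coding start site, that of Ndufa4l2, 1866 bp away. Percentiles were 67.5, 74.2 and 73.4 without dox and 74.6, 83.6 and 85.6 with dox, and these did not overlap. In CPM the signals were 7.45, 7.68 and 5.14 without dox and 16.7, 18.4 and 5.48 with dox, and here +dox replicate 3 fell among the no dox libraries. The gene start itself, region 1 (chr10:127501101-127502100), was Expanded, with no peak in any no dox library or in +dox replicate 1 but peaks at percentiles 50.8 and 91.1 in the other +dox libraries. The maximum there reached 26 and 68 alignments. With 2 copies of CAGCTG in 300 bp, it was the only Expanded region of the voltage sensor genes that had no call in a no dox library.

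Ryr1 (chr7:29003344-29125179, minus strand) encodes the calcium release channel of the sarcoplasmic reticulum. No dox replicates 1 and 3 had no peak at the locus, and no dox replicate 2 had 1, against 1, 3 and 7 peaks in the +dox libraries. The counts overlapped at 1 peak. Region 7 (chr7:29123551-29124400) led the locus, 1228 bp after the gene start, where the annotation places an exon of a Ryr1 transcript with no coding sequence. Its peak in no dox replicate 2 stood at percentile 60.7, and those of the +dox libraries stood at 49.3, 57.6 and 82.2, or 5.42 CPM against 8.37, 8.34 and 4.48 CPM. The value of no dox replicate 2 lay within the +dox range on both scales. The 300 bp around the highest maximum of region 7 held 3 copies of CAGCTG, the nearest 12 bp from the maximum.

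The other Expanded regions of Ryr1 lay far from its start. Region 1 (chr7:29007501-29008100), in an intron 117303 bp into the gene, was called in +dox replicates 2 and 3, at percentiles of 6.48 and 68.0. Region 4 (chr7:29025701-29026600), in an intron 98903 bp into the gene, had 46.9 and 60.2 in the same libraries. Neither region had a peak in a no dox library or in +dox replicate 1. The remaining 4 regions of Ryr1 were called in +dox replicate 3 alone. When +dox replicate 3 was left out, only region 7 was Expanded at Ryr1 among these 3 regions.

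Trdn (chr10:33080554-33476709, plus strand) encodes triadin, which binds the release channel and calsequestrin. It is the longest gene of the set at 396 kb and had 3 regions, of which 2 were Core and both lay deep in the gene body. Region 2 (chr10:33178801-33180650), in an intron 99272 bp from the gene start, had percentiles of 36.6, 44.9 and 78.4 without dox and 23.0, 31.9 and 96.8 with dox. The libraries numbered 3 stood highest in both groups. In the same libraries the signal was 4.19, 4.06 and 6.00 CPM without dox and 4.88, 5.00 and 18.2 CPM with dox. Region 3 (chr10:33195601-33196400) had its highest maximum in a coding exon, 58 bp from the start of a shorter Trdn transcript. It had percentiles of 53.3 and 51.0 in no dox replicates 1 and 2 and of 16.0, 31.9 and 64.6 in the +dox libraries. In replicates 1 and 2 of each group both Trdn regions thus had lower percentiles with dox than without it.

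Casq2 (chr3:102086415-102146514, plus strand) encodes a calsequestrin, the calcium buffer of the reticulum. All 4 of its regions were called in +dox replicate 3 alone. The leading region, region 1 (chr3:102112251-102112900), lay in an intron and stood at percentile 54.0 with 14 alignments at the maximum. The 300 bp around that maximum held no CAGCTG. At this depth and these list floors no peak at Casq2 was repeated between libraries.

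Jph1 (chr1:16964560-17097889, minus strand) encodes a junctophilin, which holds the plasma membrane and the reticulum together. Region 4 (chr1:17096601-17098900) covered its start, with the highest maximum 37 bp before it. Percentiles were 94.7, 89.7 and 85.9 without dox and 98.6, 97.8 and 95.9 with dox, and the groups did not overlap. The signal was 24.7, 15.4 and 8.14 CPM without dox and 105, 64.0 and 15.4 CPM with dox. Each +dox library was higher than the no dox library of its number, while +dox replicate 3 stood among the no dox values. Region 1 (chr1:16996551-16997550), in a UTR 101063 bp from the gene start, was Core and had percentiles of 36.6 and 92.7 in no dox replicates 1 and 3 and of 40.6, 42.4 and 95.5 in the +dox libraries. It was far higher in the libraries numbered 3 than in the others.

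Jph2 (chr2:163336242-163397993, minus strand), the other junctophilin of the set, had the most regions (11) and the highest peak. Region 9 (chr2:163385601-163387550), in an intron 11017 bp after the gene start, had percentiles of 97.8, 97.9 and 96.2 without dox and 98.7, 98.7 and 99.5 with dox. Its signal was 41.9, 42.2 and 17.6 CPM without dox and 109, 89.5 and 52.6 CPM with dox. The groups did not overlap on either scale, and in CPM neither did the median over all regions called in all 6 libraries. All maxima of the region fell within 50 bp. Region 6 (chr2:163353501-163354550), in an intron 43917 bp after the start, had percentiles of 61.5 and 64.3 in no dox replicates 1 and 2 and of 93.6, 88.7 and 94.3 in the +dox libraries. Its signals were 6.52 and 5.87 CPM against 46.0, 24.5 and 12.2 CPM, so each +dox peak was higher than each no dox peak, with no peak in no dox replicate 3.

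Region 4 of Jph2 (chr2:163344701-163347350) was called in all no dox libraries, at percentiles of 36.6, 60.7 and 76.1, and in +dox replicates 2 and 3, at 50.8 and 88.4. Its values with and without dox overlapped. Region 11 (chr2:163397551-163399100), at the gene start, was Expanded through peaks in +dox replicates 2 and 3, at percentiles of 46.9 and 54.0, with none in the other libraries. For 7 of the 11 Jph2 regions the nearest start site was that of the neighboring Tox2, and this held for regions 4 and 6.

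Atp2a1 (chr7:126445858-126463108, minus strand) encodes the fast-twitch calcium pump. Both of its Core regions lay before the gene start. Region 5 (chr7:126465201-126466850), 2668 bp before it, led the locus with percentiles of 72.4, 85.3 and 80.3 without dox and 71.1 and 93.5 in +dox replicates 2 and 3. Region 4 (chr7:126463951-126464750), 1218 bp before it, had percentiles of 53.3, 80.4 and 38.6 without dox and 67.2, 65.7 and 84.0 with dox. Neither region separated the groups. The missing peak of region 5 was in +dox replicate 1, the library of lowest depth. Each had 2 copies of CAGCTG in the 300 bp around its highest maximum.

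**Figure D3:**
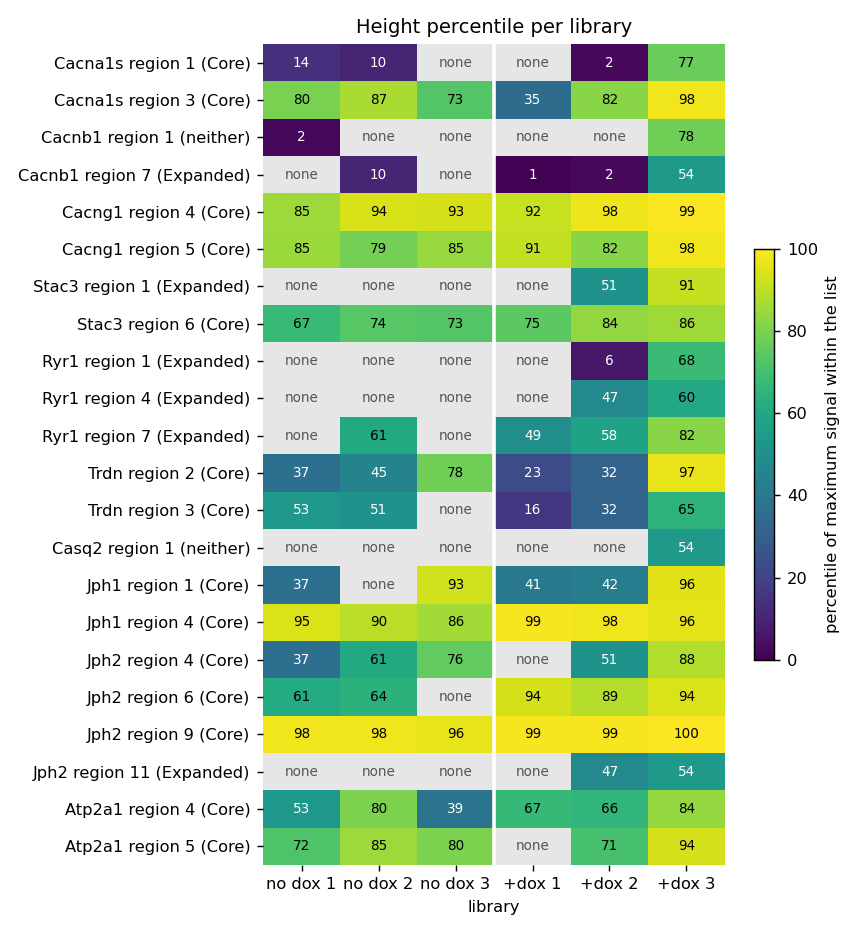
Percentile of maximum signal within each list (color and printed value, 0 to 100) for the 20 consensus regions and the leading regions of Cacnb1 and Casq2 (rows) in the 6 libraries (columns), with gray where no peak was called. Jph2 region 9, Jph1 region 4 and both Cacng1 regions are high in every column, and the column of +dox replicate 3 holds the highest value in most rows.

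The loci formed an order by the mean percentile of their leading region, a library without a peak counting as 0. Jph2 stood highest at 98.1, followed by Jph1 at 93.8 and Cacng1 at 93.6, then Stac3 at 76.5, Cacna1s at 76.0 and Atp2a1 at 67.1. Trdn at 51.9, Ryr1 at 41.6, Cacnb1 at 13.5 and Casq2 at 8.99 stood lower. The neighbors Jph1 and Cacng1, and Stac3 and Cacna1s, differed by less than the spread between libraries. The median over the 10 loci was 71.6, against 28.3 over the 15762 protein-coding genes with a region. A longer window offers more regions to choose the leading one from, and the loci had the longer windows. Their Core and Expanded regions had a median width of 1600 bp, against 1400 bp over all such regions.

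Of the 8 regions called in all 6 libraries, Stac3 region 6, Jph1 region 4 and Jph2 region 9 had every +dox percentile above every no dox percentile, 3 of 8 where 23.7% of all 4838 regions called in all 6 libraries did. None of the 8 had the reverse order, which 0.0413% of all did. For each of the 3 regions the exact two-sided permutation test gave p = 0.1, the smallest that 3 against 3 libraries allow. Groups that do not overlap always give this value, so the test added nothing to that order. The means rose from 71.7 ± 3.7 to 81.3 ± 5.9 at Stac3 region 6, from 90.1 ± 4.4 to 97.4 ± 1.3 at Jph1 region 4 and from 97.3 ± 0.95 to 99.0 ± 0.50 at Jph2 region 9 (SD, n = 3), none past a threshold of 0.05. Over the 8 regions the median difference was 6.28 percentile points and 6 were above 0, and over all 4838 the median was 6.40. The members thus moved by about as much as the regions at large.

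Those percentile differences changed when the lists were made equal in length. With every list shortened to its 9389 highest peaks, none of the 7 loci regions still called in all 6 libraries kept its groups apart, against 2.13% of all such regions with every +dox percentile higher and 6.15% with every one lower. The median difference over all such regions became -0.83, and over the 7 it was 1.43. The difference then was -10.2 at Stac3 region 6 and -6.76 at Atp2a1 region 4, opposite to the 9.60 and 14.9 with the lists as deposited. At Cacna1s region 3 it went from -8.32 to -15.4. It stayed above 0 at Jph1 region 4 (4.11), Jph2 region 9 (1.43) and both Cacng1 regions (4.95 and 6.11). In 7 of the 8 regions +dox replicate 3 had the highest percentile of all libraries, as in 85.8% of all regions called in all 6. In replicates 1 and 2 of each group, 4 of 10 loci regions had every +dox percentile higher and 2 every one lower. The shares over all such regions were 30.1% and 11.4%. The higher ones were Stac3 region 6 (8.30), Jph1 region 4 (5.97), Jph2 region 6 (28.2) and Jph2 region 9 (0.80). Trdn regions 2 (-13.2) and 3 (-28.2) were lower. What the list length contributed at a single region was not tested further.

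Maximum signal of the 8 regions was compared in a limma fit of log2 CPM over all 4838 regions, two-sided, with Benjamini-Hochberg adjustment. The log2 difference, +dox minus no dox, was 1.69 ± 0.67 at Jph1 region 4, 1.62 ± 0.55 at Cacng1 region 4, 1.35 ± 0.56 at Cacng1 region 5 and 1.35 ± 0.59 at Jph2 region 9 (SE, n = 3 and 3; limma adjusted p = 0.208 each). It was 0.84 ± 0.59 at Stac3 region 6, 0.76 ± 0.60 at Atp2a1 region 4, 0.71 ± 0.59 at Trdn region 2 and 0.62 ± 0.61 at Cacna1s region 3 (SE, n = 3 and 3; limma adjusted p between 0.294 and 0.429). None passed an adjusted p of 0.05, and neither did any region at large (0% higher and 0% lower). At an unadjusted p under 0.05 there were 4 of the 8 and 1158 of the 4838. The median difference over all tested regions was 0.91, so relative to it the Jph1, Cacng1 and Jph2 regions stood above and the other 4 below. With each library centered on its median, the differences at Cacna1s region 3, Trdn region 2 and Stac3 region 6 were -0.30, -0.22 and -0.09, and that at Atp2a1 region 4 was -0.17.

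Same-numbered libraries deviated together, most clearly those numbered 3, so the fit was also made with the replicate number as a block. The labels do not give this pairing, so the p-values of the block rest on pairs read from the same values. With the replicate block, Jph1 region 4 (limma adjusted p = 4.36e-05), Cacng1 region 4 (7.05e-05), Jph2 region 9 (0.000289) and Cacng1 region 5 (0.00209) were higher with dox, 4 of 8 where 52.0% of all tested regions were higher and 0.103% lower. A share of 4 in 8 is close to that background. Without +dox replicate 3 and with no block, Jph1 region 4, Cacng1 region 4, Jph2 region 9 and Stac3 region 6 passed, 4 of 8 against 39.0% of all regions. In replicates 1 and 2 of each group, a choice made after the data were seen, 5 of 10 loci regions passed, against 35.1% of all, and Jph2 region 6 was among them with a log2 difference of 2.44 ± 0.49 (SE, n = 2 and 2; limma adjusted p = 0.000291). With the block and median centering together, a choice also made after the data were seen, 0 of the 8 passed. Of all 4838 tested regions, 0 passed as higher and 1 as lower in that fit.

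**Figure D4:**
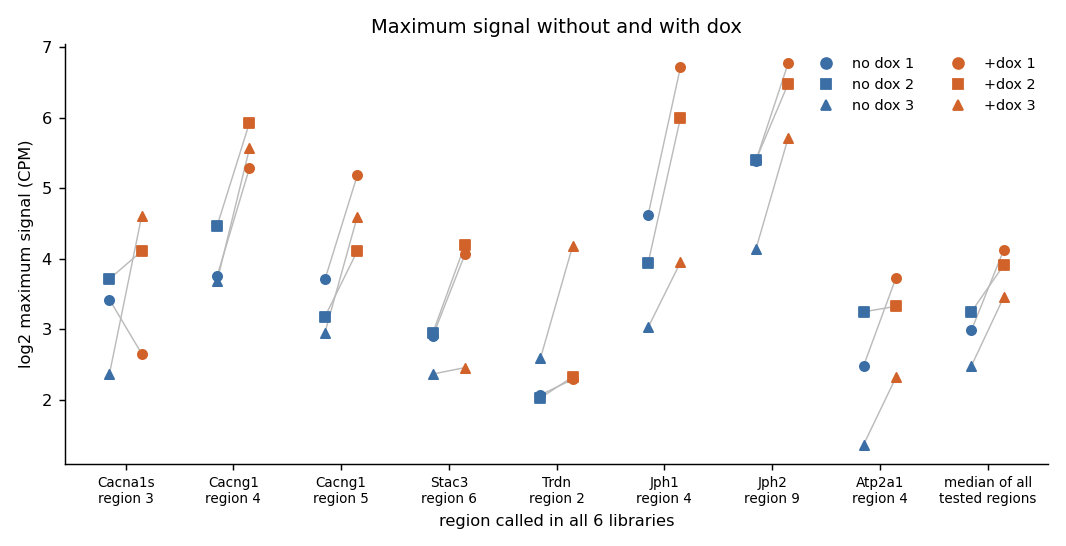
Log2 maximum signal in CPM (vertical axis) of the 8 loci regions called in all 6 libraries and, at the right, the median of all 4838 tested regions, with gray lines joining libraries of the same number. Lines rise at 7 of the 8 regions for every number and fall for number 1 at Cacna1s region 3. The median of all tested regions rises for every number as well. The median of the fitted differences over all tested regions, which is not drawn, was 0.91.

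CAGCTG lay within 150 bp of the highest maximum in 16 of the 20 consensus regions at the loci (80.0%, Wilson 95% interval 58.4 to 91.9), against 45.5% of all 14723 consensus regions and 37.4% of all 58309 regions in windows of the same length. The sequence is its own reverse complement, so both strands were searched together. Among the 16, the copy nearest to the maximum lay between 2 and 110 bp from it, with a median of 32.5 bp. Core regions held it in 11 of 14 and Expanded regions in 5 of 6, against 49.8% and 37.9% of all such regions. The 4 consensus regions without it in that window were Cacna1s region 3, Cacng1 region 4, Ryr1 region 4 and Trdn region 2. Of these, 3 were called in all 6 libraries, and only Ryr1 region 4 also lacked it in the wider search that follows. Searched over the whole region plus 100 bp on either side, CAGCTG was in 19 of the 20 (95%, interval 76.4 to 99.1), against 74.3% of all consensus regions, a smaller gap than in the 300 bp window. In the 35 loci regions called in a single library CAGCTG was present in 11 (31.4%), near the 33.9% of all such regions.

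Within 1 kb of a protein-coding start site all 6 consensus regions of the loci held CAGCTG (Wilson 95% interval 61.0 to 100), against 30.4% of all consensus regions so placed. Farther away 10 of 14 did (71.4%, interval 45.4 to 88.3), against 61.2%, which lies inside the interval. Only 30% of the consensus regions at the loci lay within 1 kb of a start site, against 51.1% of all. These intervals cover counting error only, and the regions of a locus share their gene.

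Any E-box, CANNTG, was found in all 20 consensus regions, against 80.8% of all. This pattern includes CAGCTG. The AP-1 type sequence TGANTCA was found in 3 of the 20, at Ryr1 regions 1 and 4 and Jph2 region 9 (15.0%, against 17.9%). A Mef2-type sequence, CTA and TAG with any 4 bases between them, searched on both strands like the others, was in 0 of the 20, against 2.85% of all. A missing match says only that these letters were not in the window.

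By annotation, 9 of the 20 consensus regions had their highest maximum in an intron, 6 between genes, 3 in a UTR, 1 in a coding exon and 1 in another exon. The UTR group was Stac3 region 1, Jph1 region 1 and Jph2 region 11. In 5 of the 20 the nearest protein-coding start site belonged to another gene, namely Ascl5, Ndufa4l2, Map4k1 or Tox2. The peak lists do not tie a region to the gene it acts on.

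Another 32 genes of coupling and calcium handling were counted with the same window. Of these, 14 had a Core region (43.8%) and 10 an Expanded region (31.2%), 3 of them both, and 11 had neither. Pln and Sln, which encode inhibitors of the calcium pumps, had no region in any library. The 32 held 23 Core and 15 Expanded regions, 0.502 and 0.328 per 100 kb, below the 10 loci and also below the 0.812 and 0.470 over all protein-coding genes. Their shares of genes with a Core or an Expanded region stood beside 35.4% and 25.7% of all genes.

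The 5 of the 32 with the highest leading regions are given by rule. Pvalb, encoding the cytosolic calcium buffer parvalbumin, had percentiles of 95.01, 96.7 and 89.1 without dox and 97.6, 97.7 and 97.8 with dox in an intron (chr15:78204951-78206450). Homer1, a scaffold protein, had 94.5, 93.6 and 80.3 against 96.8, 94.7 and 97.3 close to its start (chr13:93303151-93305200). Orai1, the store-operated calcium channel, had 95.5, 95.1 and 73.4 against 96.6, 94.4 and 95.4 (chr5:123014101-123015850). Only at Pvalb and Homer1 did the groups not overlap among these 3. Stim1, the calcium sensor of the reticulum, had 74.2, 86.0 and 85.9 against 70.5, 81.4 and 96.7 (chr7:102266551-102269000). Atp2a2, the slow-twitch and cardiac pump, had 67.5, 77.7 and 66.0 against 82.3, 90.7 and 94.8 (chr5:122447101-122448450), where the groups did not overlap. Its leading region lay nearer to the start site of Anapc7 than to its own. Of all 4838 regions called in all 6 libraries, 23.7% had every +dox percentile above every no dox percentile. With lists shortened to the shortest that share was 2.13%, and these 5 genes were not examined with shortened lists.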

How the data were processed

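The study mapped tagged MyoD1 by CUT and RUN with an anti-Flag antibody and processed reads with nf-core/cutandrun on mm10, with blacklist removal, scaling of coverage to library size (CPM) and peak calling per library by SEACR in relaxed mode; the submitters' processing notes also name deepTools. The signal values used here are those the authors deposited, namely each peak's total and maximum signal in CPM, without a spike-in scale or replicate pooling. A control library for calling is not given in the sources used here. Maximum signals were whole multiples of 1 step in 100% of peaks, within 2% of a step or 0.002% of the value, whichever was larger, which gave depth in alignments and sets the precision of low peaks. All peaks lay within the chromosomes of GRCm38, the assembly behind mm10.

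Groups and replicate numbers came from the labels. The members, the 32 further genes and the settings were chosen with earlier results of these data known. Consensus followed the study (2 of 3 libraries), with an overlap of 1 bp chosen here. Named were, per locus, the region with the highest mean percentile, regions called in 3 of 3 against 0 of 3 libraries, and regions past adjusted p 0.05; other regions and genes appear as counts, ranges and values of members described. Regions called in all 6 libraries were compared with limma 3.58.1 in R 4.3.3 (eBayes with trend), tested on simulated data. Same-numbered libraries' deviations from group means correlated at 0.485, 0.267 and 0.628 over 4838 regions, so the numbers were taken as pairs from the data, not from the labels. No dox replicate 1 with +dox replicate 2 gave 0.265, and no dox replicate 2 with +dox replicate 1 gave 0.219. Pairing was thus weakly marked for replicate 2, and only the libraries numbered 3 stood clearly apart from the rest. Nothing beyond "biological replicate" says how cultures were separated. Other steps ran in Python 3.11.15 with pandas 2.3.3, SciPy 1.17.1 and NumPy 2.4.6. Alternatives left out libraries, changed list length, thresholds, windows, scale, measure, motif window and pairing.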

Additional observations from a re-analysis of the deposited data

How the results depend on the processing

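Of the results over all loci, 51 alternative values counted as kept and 11 as moved. Peak and percentile differences counted as kept if they shifted by less than the pooled SD (13.6 peaks or 5.99 points) without reversing. Region counts had to stay within 1.5 times, motif shares within the Wilson interval, and limma calls had to be equal. The SD of peaks included +dox replicate 3 and was wide. Falls from 15.3 to 4.5, 3.67 or 3 peaks thus counted as kept, as did a median percentile difference of 1.43 against 6.28. Leaving out each library in turn gave differences of 4.5 to 22.0 peaks per library, 10 to 14 Core regions, 2 to 10 Expanded regions, median percentile differences of 3.60 to 8.71 and 0 to 4 regions past the limma threshold. The 6 Expanded regions became 10 without no dox replicate 1, 2 without +dox replicate 2 and 2 without +dox replicate 3, so this count rested on single libraries. Shortened lists gave a difference of 0 peaks and 2 Expanded regions, and replicates 1 and 2 of each group gave 3 Expanded regions and 5 limma calls. The replicate block was run for the limma fit and the peak difference, and gave 4 limma calls. The mean of the paired peak differences equals the difference of group means by arithmetic. Its 15.3 peaks, counted among the 51, therefore tested nothing. CAGCTG was in 95% of regions extended by 100 bp, against 74.3% of all consensus regions, and CANNTG was in 100% of the 300 bp windows. At Cacna1s region 3 the difference in normal scores of percentiles was -0.0032, opposite in sign to the log2 difference of the main fit. The log2 difference changed sign there with median centering (-0.30, with or without the block), quantile normalization (-0.29) and replicates 1 and 2 (-0.19). It did so at Stac3 region 6 with median centering (-0.087, with or without the block) and quantile normalization (-0.030), at Trdn region 2 with the same settings (-0.22 and -0.057), and at Atp2a1 region 4 with median centering (-0.17) and quantile normalization (-0.048). The cause of these changes was not tested. Depth and list floors limit calls of under about 10 alignments, so a region without a peak may lie just under a floor, and the exact permutation test of 3 against 3 libraries on a single value cannot give a p below 0.1.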
